A study of Homo sapiens with 8 samples.

Results

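Integrins are cell surface receptors built of 1 alpha and 1 beta chain that bind the extracellular matrix outside the cell and, through adaptor proteins, the actin cytoskeleton inside it. The accessible chromatin of 6 integrin genes was examined in cultured H1650 cells, an established line from a human non-small cell lung cancer. The genes were ITGB1, ITGA2, ITGA6, ITGAV, ITGB4 and ITGB6. Members were the open regions that overlapped a fixed hg19 window around each gene, and there were 35 of them among the 46665 regions of all lists. A region is the stretch covered by peaks of any of the 8 lists where they overlap or touch, and it is listed in a library when that library's list has a peak in it.

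ATAC-seq, in which a transposase inserts adapters into open chromatin, was run on 8 libraries, 2 in each of 4 groups. Untreated cells were set beside cells given a non-targeting siRNA pool (siControl), a mix of siRNAs against exon 11a of hMENA (siMena11a) or a pool against all of hMENA (siMena), each at 20 nmol/L. hMENA, encoded by ENAH, is a regulator of actin filaments that acts at cell adhesions, and hMENA11a is its epithelial isoform. All 8 libraries come from this 1 line, and the labels do not say whether replicates were separate cultures. The labels name the molecule as total RNA and the library source as transcriptomic, which does not match the peak lists. Knockdown was not measured in these files, and accessibility at ENAH would not check it.

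The pairing of chains sets what an integrin binds. ITGB1 encodes the beta chain shared by most matrix receptors. ITGA2 joins it to bind collagen, and ITGA6 joins it, or ITGB4, to bind laminin. ITGB4 anchors epithelial cells to the basement membrane at hemidesmosomes. ITGAV pairs with several beta chains, among them ITGB6, and the receptor of ITGAV with ITGB6 is found on epithelial cells, where it activates latent TGF-beta.

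The sequences before the start sites of 3 of the genes are shown here because their loci hold the most widely listed region (ITGAV) and all the regions that were called between groups (ITGA2 and ITGB6). Each run is the 250 bases before a RefSeq start in GRCh38.p14, read 5′ to 3′ on the gene's strand, taken at the start with the most CG pairs where a gene had several. Capitals mark the GC box GGGCGG on either strand. The positions are chr2:186589806-186590055 on the plus strand for ITGAV, chr5:52989102-52989351 on the plus strand for ITGA2 and chr2:160200273-160200522 on the minus strand for ITGB6.
ITGAV: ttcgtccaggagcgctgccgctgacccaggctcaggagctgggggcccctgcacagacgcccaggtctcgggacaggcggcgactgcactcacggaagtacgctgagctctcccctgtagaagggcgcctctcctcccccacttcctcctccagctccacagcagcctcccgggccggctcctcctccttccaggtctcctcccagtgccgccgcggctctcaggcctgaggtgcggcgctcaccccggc
ITGA2: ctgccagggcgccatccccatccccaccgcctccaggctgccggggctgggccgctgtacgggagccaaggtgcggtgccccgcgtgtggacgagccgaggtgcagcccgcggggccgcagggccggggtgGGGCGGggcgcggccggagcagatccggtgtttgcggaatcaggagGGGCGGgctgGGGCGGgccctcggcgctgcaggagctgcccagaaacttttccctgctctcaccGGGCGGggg
ITGB6: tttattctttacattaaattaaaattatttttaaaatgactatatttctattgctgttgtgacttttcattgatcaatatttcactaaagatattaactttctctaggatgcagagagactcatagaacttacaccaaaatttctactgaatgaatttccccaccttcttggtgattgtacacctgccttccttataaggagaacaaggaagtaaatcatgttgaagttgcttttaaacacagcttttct

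The ITGAV and ITGA2 runs were rich in G and C, at 70.8% and 76.4%, and the ITGB6 run was poor in both, at 30.0%, against a median of 58.0% over 35116 RefSeq start-site runs of the same length. ITGAV has a further start, whose run, not shown, held 40.8% G and C and 1 CG pair. Taking the start with the most CG pairs thus raised the ITGAV figures, and the 35116 runs were not chosen in this way. The ITGA2 run held 4 GC boxes and the ITGAV and ITGB6 runs none. Of all runs, 42.6% held at least 1. The ITGB6 run held no CG pair, against 18 in ITGAV and 26 in ITGA2. Neither the AP-1 motif TGANTCA, found in 6.57% of all runs, nor the TEAD motif GGAATG, found in 11.9%, occurred in the 3 runs on either strand. Among the runs not shown, an ITGB1 run held 1 TEAD motif and 3 GC boxes and an ITGA6 run held 3 GC boxes. The others not shown held none of these motifs. The table of start-site runs matched 5 of the 6 genes, all but ITGB4. The runs are in another build than the peaks, so whether a region covers a start site was not analysed here.

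The 6 windows spanned 880 kb and held 39.8 regions per Mb, against 15.7 per Mb over the stretch of chromosomes 1 to 22 and X that the lists span. The windows were placed on genes, and the wider figure takes in gene deserts, so the densities are a description. ITGB6 had 10 regions, ITGB4 had 7, ITGA2, ITGA6 and ITGAV had 5 each, and ITGB1 had 3. In each locus the regions are named by a letter in order along the chromosome. The windows also reach toward other genes. In the order of RefSeq genes, CCDC7 and NRP1 flank ITGB1, PELO and MOCS2 flank ITGA2, DLX2 and PDK1 flank ITGA6, LOC124907920 and FAM171B flank ITGAV, SAP30BP and GALK1 flank ITGB4, and PLA2R1 and RBMS1 flank ITGB6. Only the next protein-coding gene by start is named on each side, so a window may reach genes that are not named here. A region was not assigned to a gene within its window, so a region named for a locus may lie in or at another gene.

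In every group, replicate 2 had the higher genome-wide background, which scales with the tags of a library, and the shorter list. The lists held 14678 to 35472 peaks in replicate 1 and 1020 to 22424 in replicate 2, while this background was 0.538 to 0.935 tags per position in replicate 1 and 1.09 to 2.88 in replicate 2. The siMena list was the shortest of each replicate. Each statement on a group therefore carries the 2 replicates side by side.

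The integrin regions were listed in most replicate 1 libraries and in few of the transfected replicate 2 libraries. Untreated, siControl, siMena11a and siMena replicate 1 listed 32, 30, 29 and 16 of the 35 regions, and replicate 2 listed 20, 8, 2 and 0. In siMena replicate 2 a count of 0 allows a share of up to 8.57%, for counting error only, and 2.14% of all regions were listed there. The 8.57% treats the 35 regions as independent, which regions of the same window and library need not be, so it is a rough guide. The integrin share was above that of all regions in 6 libraries, for example 91.4% against 72.4% in untreated replicate 1 and 22.9% against 10.9% in siControl replicate 2. The exceptions were siMena11a replicate 2, with 5.71% against 5.92%, and siMena replicate 2.

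**Figure D1:**
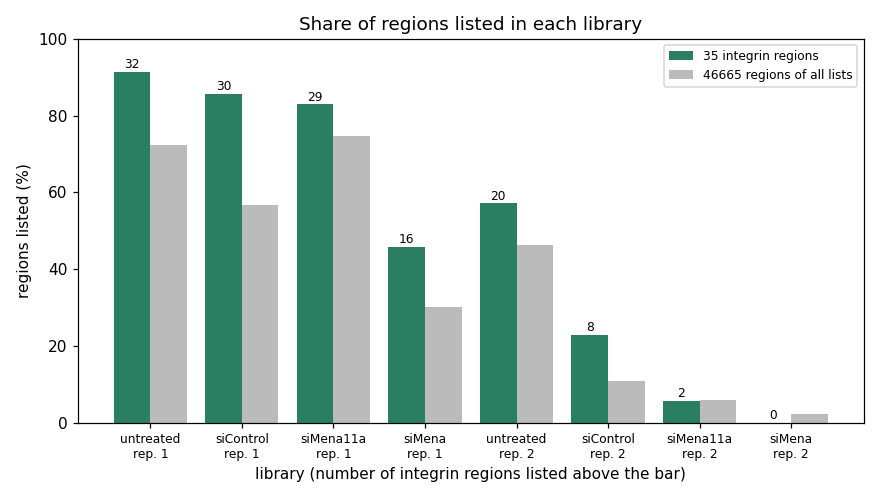
Share of regions listed in each library, in percent, for the 35 integrin regions (green) and the 46665 regions of all lists (grey), with 1 pair of bars per library. The green bar is the taller in 6 of the 8 libraries, and the number above it falls from 32 in untreated replicate 1 to 0 in siMena replicate 2.

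The integrin regions were shared by more lists than regions in general. The windows were placed on genes and were not compared with other gene windows, so this and the shares per library are a description. Of the 35, 16 (45.7%) were listed in 5 or more libraries, against 24.6% of all regions, and 5 (14.3%) in 1 library, against 31.2%. Their median width was 544 bp, against 394 bp, and a region widens with the lists that contribute to it. All 4 replicate 1 libraries listed 16 of the 35 (45.7%), against 27.6% of all regions. Replicate 2 libraries added 1 region (2.86%, against 6.92% of all regions) that no replicate 1 library listed. It was ITGA2-C, with a fold of 5.26 in untreated replicate 2. No integrin region was listed in all 8 libraries, and only 1.16% of all regions were, so with 35 regions this 0 is no result.

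Fold is the authors' ratio of tags at a peak's summit to its local background, with 1 added to each, and the percentile of a region is the share of peaks of the same list with the same or a lower fold. By this measure the integrin regions lay in the middle of their lists. Their median percentile was 49.9, 51.6, 52.2 and 39.0 in untreated, siControl, siMena11a and siMena replicate 1, and 59.0 and 43.2 in untreated and siControl replicate 2. In siMena11a replicate 2 it was 72.3, over 2 regions only. The loci differed from each other. The median over regions and libraries was 73.4 at ITGAV, 66.6 at ITGB1, 65.6 at ITGA2, 49.9 at ITGA6, 48.8 at ITGB6 and 34.6 at ITGB4. Points of 1 locus share libraries and regions, so no spread or test is given for this order.

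**Figure D2:**
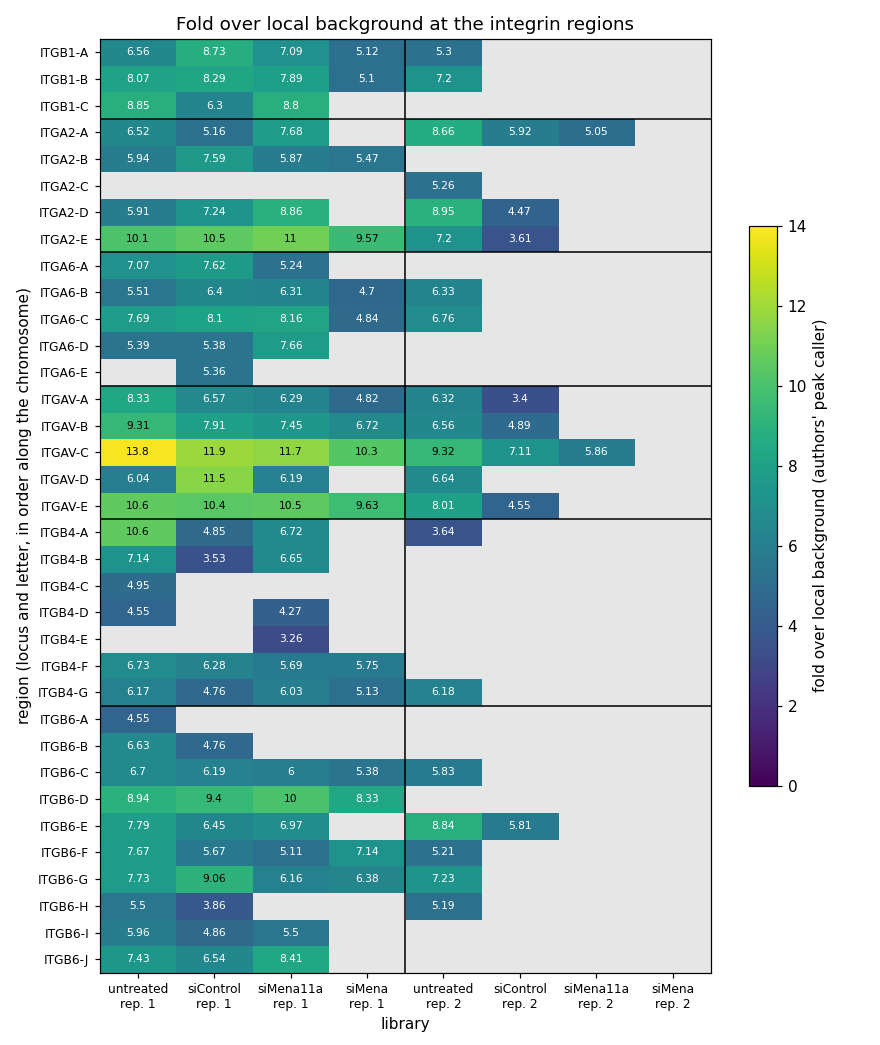
Fold over local background at the 35 integrin regions (rows, grouped by locus) in the 8 libraries (columns, replicate 1 left of the line and replicate 2 right of it), with grey where a library lists no peak. The highest fold is 13.8 at ITGAV-C in untreated replicate 1, and the siMena replicate 2 column is empty.

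The shared beta chain gene, ITGB1, had few regions, and all 3 were listed in replicate 1. ITGB1-B (chr10:33269364-33269939), its most widely listed region, had folds of 8.07, 8.29, 7.89 and 5.10 in untreated, siControl, siMena11a and siMena replicate 1 and of 7.20 in untreated replicate 2. The siMena value was the lowest of the 5 and rested on 15 tags at the summit, against 25 to 35 in the other 4 libraries. ITGB1-A (chr10:33246865-33247571) was listed in the same libraries, with folds of 6.56, 8.73, 7.09, 5.12 and 5.30. ITGB1-C (chr10:33287043-33287558) was listed in untreated, siControl and siMena11a replicate 1 only, with folds from 6.30 to 8.85. In replicate 2, no transfected library listed a region of this locus.

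The window of ITGA2, the collagen-binding alpha chain gene, held regions of very different spread over the libraries. ITGA2-E (chr5:52405233-52405965) had folds of 10.1, 10.5, 11.0 and 9.57 in untreated, siControl, siMena11a and siMena replicate 1, 7.20 in untreated replicate 2 and 3.61 in siControl replicate 2. The 4 replicate 1 values lay close together and above both replicate 2 values. ITGA2-A (chr5:52283530-52284086) had folds of 6.52, 5.16 and 7.68 in untreated, siControl and siMena11a replicate 1 and of 8.66, 5.92 and 5.05 in the replicate 2 libraries of the same groups. Here the values of the 2 replicates overlapped, and neither siMena library listed the region. ITGA2-D (chr5:52333186-52333746) had folds of 5.91, 7.24 and 8.86 in the same replicate 1 libraries and of 8.95 and 4.47 in untreated and siControl replicate 2. ITGA2-B (chr5:52284741-52285494) was listed in the 4 replicate 1 libraries only, with folds from 5.47 in siMena to 7.59 in siControl.

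ITGA6, the laminin-binding alpha chain gene, was listed only in replicate 1 and in untreated replicate 2. ITGA6-C (chr2:173306790-173307359) had folds of 7.69, 8.10, 8.16 and 4.84 in untreated, siControl, siMena11a and siMena replicate 1 and of 6.76 in untreated replicate 2. Its siMena value was the lowest and rested on 11 tags, against 19 to 31 in the other 4. ITGA6-B (chr2:173291926-173292628), listed in the same 5 libraries, had folds from 4.70 in siMena to 6.40 in siControl replicate 1. The other 3 regions of the locus were in 1 to 3 replicate 1 libraries, never in siMena.

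ITGAV held the strongest and most widely listed integrin region. ITGAV-C (chr2:187454338-187455224) had folds of 13.8, 11.9, 11.7 and 10.3 in untreated, siControl, siMena11a and siMena replicate 1 and of 9.32, 7.11 and 5.86 in untreated, siControl and siMena11a replicate 2. All 4 replicate 1 values lay above the 3 replicate 2 values, and only siMena replicate 2 did not list the region. Its summit held 67, 61, 65 and 35 tags in replicate 1 and 48, 30 and 27 in replicate 2, and its percentile ran from 81.7 to 98.5. ITGAV-E (chr2:187558490-187559374) had folds of 10.6, 10.4, 10.5 and 9.63 in replicate 1, in the same order, and of 8.01 and 4.55 in untreated and siControl replicate 2. As at ITGA2-E, the groups lay close together within replicate 1 and below that in replicate 2. Both are the last region of their window, ITGA2-E on the side of MOCS2 and ITGAV-E on the side of FAM171B. Which gene either belongs to was not analysed. ITGAV-A (chr2:187435245-187435751) had folds of 8.33, 6.57, 6.29 and 4.82 in replicate 1 and of 6.32 and 3.40 in the same replicate 2 libraries. ITGAV-B (chr2:187440016-187440403) had 9.31, 7.91, 7.45 and 6.72 in replicate 1 and 6.56 and 4.89 in replicate 2. At both, untreated was the highest and siMena the lowest of the replicate 1 values. ITGAV-D (chr2:187506498-187506822) departed from this order. Its fold was 11.5 in siControl replicate 1, on 24 tags, and 6.04, 6.19 and 6.64 in untreated replicate 1, siMena11a replicate 1 and untreated replicate 2, on 10 to 14 tags.

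The window of ITGB4, the hemidesmosome beta chain gene, held several regions of low rank. ITGB4-G (chr17:73780654-73781353) had folds of 6.17, 4.76, 6.03 and 5.13 in untreated, siControl, siMena11a and siMena replicate 1 and of 6.18 in untreated replicate 2. These values rested on 15 to 23 tags, and both untreated values were the highest. ITGB4-A (chr17:73696426-73696969) varied most between the untreated replicates of the 19 regions in both lists, with folds of 10.6 in replicate 1 and 3.64 in replicate 2, on 18 and 10 tags. In siControl and siMena11a replicate 1 it had 4.85 and 6.72. The 6 regions of the locus other than ITGB4-G were in 1 to 4 libraries, with folds from 3.26 to 10.6.

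ITGB6, the epithelial partner of ITGAV, had the most regions, of which 4 were in 5 libraries. ITGB6-E (chr2:161061951-161062477) had folds of 7.79, 6.45 and 6.97 in untreated, siControl and siMena11a replicate 1 and of 8.84 and 5.81 in untreated and siControl replicate 2. The highest value was that of untreated replicate 2, on 40 tags against 22 to 24 in the other 4, and siMena listed the region in neither replicate. ITGB6-D (chr2:161014371-161014947), of similar fold in each of the 4 replicate 1 libraries (8.33 in siMena to 10.0 in siMena11a), was in no replicate 2 library. The 9 regions other than ITGB6-E were in 1 to 5 libraries, with folds from 3.86 to 10.0.

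**Figure D3:**
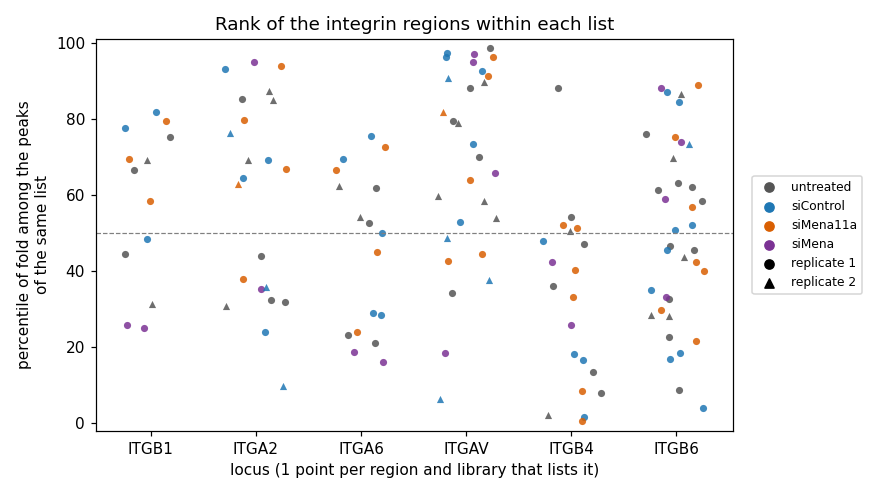
Percentile of fold among the peaks of the same list, 1 point per region and library that lists it, by locus, with colour for the group and circles and triangles for replicates 1 and 2. The dashed line marks the middle of a list, and the ITGAV points lie mostly above it (median 73.4) and the ITGB4 points mostly below it (median 34.6).

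The pool against all of hMENA was compared with siControl, the control for transfection, to find regions that differ with its silencing. A region was called gained if both libraries of the first group and neither of the second listed it, and lost in the opposite case. Against siControl, siMena lost 3 integrin regions (8.57% of the 35), ITGA2-A, ITGA2-D and ITGB6-E, and gained none, while 1.03% of all regions were lost and 0.00214% gained. A lost region must be in both siControl lists, which held 8 of the integrin regions, so 3 of 8 were lost, against 10.4% of all regions in both lists. With so few regions these shares are counts, and with 2 libraries against 2 no exact permutation p can fall below 0.333. The other 5 regions in both siControl lists were ITGA2-E and the ITGAV regions A, B, C and E, all listed in siMena replicate 1. In each replicate the siMena list was shorter than that of siControl, and the part of list length in the calls was not tested. In lists shortened to the same length no integrin region was lost, and without siMena replicate 1 or siControl replicate 2, 8 or 14 were. Leaving out a library eases the rule for every region. The shares of all regions under these omissions are not given here, so 8 and 14 are no result on the integrin regions. Shortening also cuts the siControl lists, and a region cut there cannot be called lost, so no conclusion is drawn from that 0.

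Replicate 1 gave the fuller view of siMena. In that replicate, siMena listed 16 and lacked 14 of the 30 integrin regions of siControl and had none of its own. It thus lacked 46.7% of the siControl integrin regions, against 49.8% of all regions of that list. Of the 27 integrin regions in the other 3 replicate 1 libraries, siMena listed 59.3%, against 59.1% of all such regions. The regions it lacked were spread over all 6 loci. At the 16 regions in both lists, the siMena fold was 0.858 times the siControl fold at the median, against 0.819 times over all regions, and higher at 2 of them, ITGB4-G and ITGB6-F. Over all regions it was higher at 19.0%. The lowest fold that siMena replicate 1 listed among the integrin regions was 4.70. In siControl replicate 1 the lost regions ITGA2-A, ITGA2-D and ITGB6-E had 5.16, 7.24 and 6.45. The 4.70 is only the lowest of 16 listed values and no limit of detection. At its genome-wide background the siMena replicate 1 list held folds down to 4.06. Folds were also not on the same scale in the lists (0.819 times over all regions). Whether siMena replicate 1 could have listed the lost regions was therefore not tested. In replicate 2, siMena listed none of the 8 integrin regions of siControl and lacked 83.3% of all regions of that list.

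Silencing of the 11a isoform was set against siControl in the same way, and no integrin region was gained or lost, while 0.0279% of all regions were gained and 0.0557% lost. ITGAV-C and ITGA2-A were in all 4 lists. Without siMena11a replicate 2, 2 regions were gained, and without siMena11a replicate 1 or siControl replicate 2, 6 or 3 were lost. The shares of all regions under these omissions are not given, so these counts describe the rule and not the integrin regions. Within replicate 1, 27 regions were in both lists, ITGB4-D and ITGB4-E in siMena11a only and ITGA6-E, ITGB6-B and ITGB6-H in siControl only. siControl thus lacked 6.90% of the siMena11a integrin regions, against 32.4% of all regions of that list, and siMena11a lacked 10.0% of those of siControl, against 11.0%. At those 27 the siMena11a fold was 1.01 times the siControl fold at the median, with a range from 0.539 to 1.88, and higher at 14. Over all regions in both lists it was 1.09 times and higher at 65.5%. Within replicate 2, siMena11a lacked 6 of the 8 integrin regions of siControl (75.0%), against 54.9% of all regions of that list, and listed none that siControl lacked, against 17.3% of its list in all. At the regions in both lists its fold was the lower, 5.05 against 5.92 at ITGA2-A and 5.86 against 7.11 at ITGAV-C. The median fold of all peaks was 4.64 in siMena11a replicate 2 and 4.9 in siControl replicate 2.

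Both knockdowns were compared with each other. ITGA2-A was gained in siMena11a against siMena, 1 of 35 regions (2.86%), while 0.240% of all regions were gained and 0.00643% lost. It was 1 of the 2 integrin regions in both siMena11a lists, of whose regions 4.58% were gained in all. The other, ITGAV-C, was also in siMena replicate 1. ITGA2-A was listed in all 6 libraries outside the siMena group. Within replicate 1, siMena lacked 13 of the 29 integrin regions of siMena11a (44.8%), against 60.9% of all regions of that list, and had none of its own. Within replicate 2 it lacked both, against 70.5% of all regions. The siMena11a list was the longer in both replicates, and in lists shortened to the same length ITGA2-A was not called. A region cut from a siMena11a list cannot be called gained, so this too decides nothing on siMena. Without siMena11a replicate 2, 13 integrin regions were gained, and without siMena replicate 1, 2 were. No share of all regions stands beside these counts, so they are no result on the integrin regions.

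To examine transfection itself, siControl was compared with untreated cells, and no integrin region was gained or lost, against 0.120% and 3.65% of all regions. The 8 regions in all 4 lists were ITGA2-A, ITGA2-D, ITGA2-E, ITGAV-A, ITGAV-B, ITGAV-C, ITGAV-E and ITGB6-E. With siControl replicate 1 left out, 11 regions were lost, and with replicate 2 or 1 of untreated left out, 3 or 1 were. With siControl replicate 2 left out, 1 was gained. For these omissions too the shares of all regions are not given, so the counts are no result on the integrin regions. Of the 19 integrin regions in both untreated lists, 42.1% were in siControl replicate 2, against 25.4% of all regions. Within replicate 1, 29 regions were in both lists, ITGA6-E in siControl only and ITGB4-C, ITGB4-D and ITGB6-A in untreated only. siControl lacked 9.38% of the untreated integrin regions, against 31.3% of all regions of that list, and untreated lacked 3.33% of those of siControl, against 12.2%. At those 29 the siControl fold was 0.924 times the untreated fold at the median and higher at 11. Over all regions in both lists it was 0.867 times and higher at 26.9%. Within replicate 2, siControl lacked 12 of the 20 integrin regions of untreated (60.0%), against 78.9% of all regions of that list. At all 8 regions in both lists its fold was the lower, for example 7.11 against 9.32 at ITGAV-C and 4.47 against 8.95 at ITGA2-D. The median fold of all peaks was also lower, 4.9 in siControl replicate 2 and 6.15 in untreated replicate 2.

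**Figure D4:**
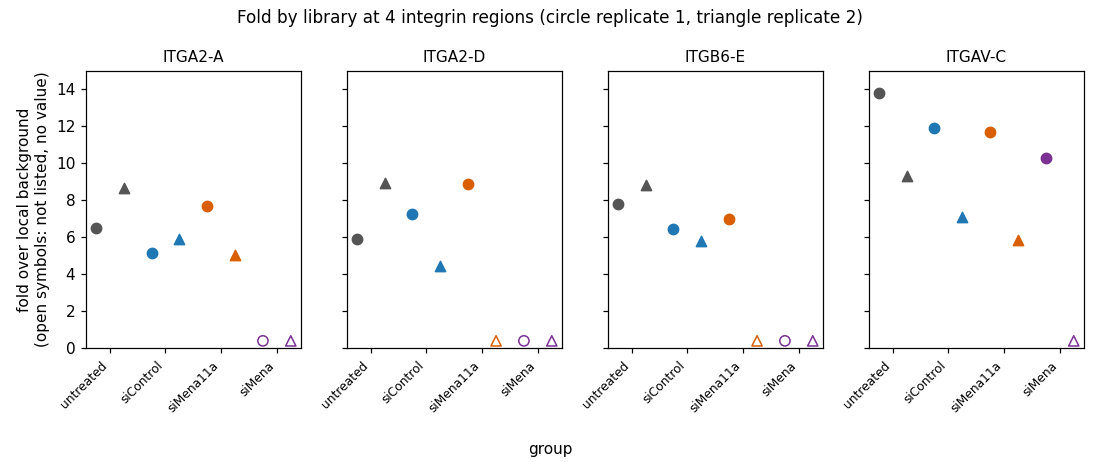
Fold over local background by library at the 3 regions called lost in siMena against siControl (ITGA2-A, ITGA2-D and ITGB6-E) and at ITGAV-C, by group, with circles for replicate 1 and triangles for replicate 2. Open symbols near 0 mark libraries that do not list the region and carry no value, as both siMena libraries do at the 3 lost regions.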

How the data were processed

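ATAC-seq peak lists of 8 H1650 libraries were analysed, 1 list per library. Per the submitters' processing notes the build was hg19 and the tools named include MACS2 2.2.5, SAMtools 1.7, Bowtie2 2.3.4.2 and FastQC 0.11.5. Trimming, duplicate removal and the shift for the transposase are not given in the sources used here. Rows are summits, and distinct intervals were taken as peaks. The score, the fold ratio, the −log10 p and the −log10 q of each peak were deposited by the authors. The score is 10 times the −log10 q, rounded down, for at least 99.98% of rows, and the lists end near a −log10 q of 2.00. The fold of a region in a library is its highest summit fold there. Folds were set side by side between lists as a description only.

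The files give no read totals. Whole tags and local backgrounds were recovered from fold and −log10 p by the caller's Poisson formula, which matched the deposited −log10 p to 0.001 in 100.0% of rows, and the lowest background of a list served as the measure of depth. The recovery was tested on simulated summits, which all had more tags than the weakest summits reported here. The region calls were checked by removing the listings of a group from real regions, which checks the working of the rule and not its power. Members, windows and lists were chosen with earlier results of these data known. Regions named in full were those in 6 or more libraries, the most widely listed of each locus (ties by mean percentile) and those gained or lost; ITGA2-B, ITGA6-B, ITGAV-D, ITGB1-A, ITGB1-C, ITGB4-A and ITGB6-D were added after their values were seen, as were single regions named for a listing in 1 group. Neither gene models nor sequence of hg19 were used, so the other integrin, adhesion partner and cell type marker genes listed for that case were not analysed here. Alternatives were shortened lists, a score of at least 50, a 50% overlap, joining across 200 bp, other window edges and leaving out each library. The software was SciPy 1.17.1, pandas 2.3.3, numpy 2.4.6 and matplotlib 3.10.9 under Python 3.11.15.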

Additional observations from a re-analysis of the deposited data

How the results depend on the processing

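The 35 regions became 30 with a score of at least 50, 32 when joined across 200 bp and 50 with windows widened by 50 kb, and stayed 35 under the 50% overlap and with regions wholly inside a window. In lists shortened to the same length, siMena lost 0 regions against siControl, siMena11a gained 0 against siMena and siControl gained 1 against untreated. Regions lost in siControl against untreated numbered 1 with a score of at least 50, 1 under the 50% overlap and 2 with widened windows. Shortening cuts the lists in which a called region must stand, so the counts of 0 there decide nothing on the siMena group. The causes of these changes were not tested. The other 47 of 53 values kept within 1.5 times the reported count.

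Leaving out 1 library at a time, regions lost in siMena against siControl ranged from 3 to 14 (8 without siMena replicate 1 and 14 without siControl replicate 2), with 0 gained. In siMena11a against siControl, 0 to 2 were gained (2 without siMena11a replicate 2) and 0 to 6 lost (6 without siMena11a replicate 1, 3 without siControl replicate 2). In siControl against untreated, 0 to 1 were gained (1 without siControl replicate 2) and 0 to 11 lost (11 without siControl replicate 1, 3 without untreated replicate 2, 1 without untreated replicate 1). In siMena11a against siMena, 1 to 13 were gained (13 without siMena11a replicate 2, 2 without siMena replicate 1) and 0 lost. A rule with 1 library fewer is easier to meet for every region. The shares of all regions called under each omission are not given, so these ranges show the sensitivity of the calls only.

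No paired analysis was possible because the calls come from the overlap of lists and from no test to which a block applies. The report gives the counts within each replicate number instead. Lists end at a q threshold, so a region that is not listed is not shown to be closed.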

Other observations

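The 3 regions that siMena lost against siControl had a higher fold in untreated replicate 2 than in untreated replicate 1. So did ITGA6-B, ITGAV-D and ITGB4-G, which were not lost. A high fold in untreated replicate 2 was not particular to the lost regions, as ITGAV-C, which was not lost, had 9.32 there. Of the 19 integrin regions in both untreated lists, 6 had a higher fold in replicate 2 than in replicate 1: ITGA2-A (8.66 against 6.52), ITGA2-D (8.95 against 5.91), ITGA6-B (6.33 against 5.51), ITGAV-D (6.64 against 6.04), ITGB4-G (6.18 against 6.17) and ITGB6-E (8.84 against 7.79). Over all regions in both lists the share was 21.4%, against 31.6% of the integrin regions, and the median ratio of replicate 2 to replicate 1 was 0.796, against 0.878. ITGA2-A was also the only 1 of 8 integrin regions with a higher fold in siControl replicate 2 than in replicate 1, 5.92 against 5.16, where 3.78% of all regions in both lists were higher. The pattern was noticed in these data, and it was not tested.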
